A study of Mus musculus with 6 samples.

Results

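Transcripts of 33 nuclear receptor genes, out of 19790 genes counted, are described in gonadal white adipose tissue (gWAT) of wild-type mice on 2 diets. The genes were chosen by symbol and the rule uses no measured value, though earlier results of these data were known when the list was made. They are the mouse nuclear receptors other than the REV-ERB clock receptors, the liver X receptors, *Pparg* and some further genes. All 33 were found in the deposited table. The series holds 6 libraries, 1 per mouse. NCD replicates 1, 2 and 3 came from wild-type C57BL/6 mice kept on a normal chow diet (NCD), and HFD replicates 1, 2 and 3 came from wild-type C57BL/6 mice given a high-fat diet (HFD). Both groups ate their diet for 8 weeks. The labels place the start of feeding at 6 weeks of age and the methods place it later; the methods state that the animals were male. The labels name no transgene, drug or other treatment in either group. gWAT lies next to the epididymis in males, and each library reads RNA of the whole pad. The comparison asks which transcripts of this tissue differ between the 2 diets.

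Nuclear receptors are transcription factors that, in most members, carry a zinc-finger DNA-binding domain and a pocket for a small lipophilic ligand. Binding of a hormone, vitamin or fatty acid exchanges corepressors for coactivators on the receptor. Steroid receptors bind DNA mainly as homodimers and are held by chaperones until their hormone arrives. Retinoic acid, thyroid hormone, vitamin D and fatty acid receptors work mainly as partners of a retinoid X receptor (RXR) and read repeats of the hexamer AGGTCA. Receptors without a known physiological ligand are called orphans, and several of them act as repressors or are controlled by their own level. In white fat this family is known for adipocyte differentiation, lipid storage, lipolysis and the response to glucocorticoids.

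NCD replicate 1 stood apart from the other libraries, and its values are therefore given separately for most members. Genes of seminal vesicle secretions took 58.6% of its counts, whereas the shares of NCD replicates 2 and 3 were 11.2% and 2.30% and those of the HFD libraries at most 1.21e-05%. On the scale of CPM after TMM normalization (TMM-scaled CPM), the 9 adipocyte markers examined were all lower in NCD replicate 1 than in the mean of NCD replicates 2 and 3, with a median log2 ratio of −2.07. The 8 smooth muscle markers (median 3.60) and the 12 epithelial markers (median 4.06) were all higher there. Total counts were between 49575113 and 66360046 per library, and the TMM factor of NCD replicate 1 was 0.496 while the rest had 1.02 to 1.27. The adipocyte markers were present in all 6 libraries, with sums of 5706, 21201 and 29309 for the NCD mice in order of replicate and between 11933 and 15746 in the HFD mice. The summed level of 10 macrophage markers was 503, 1147 and 1020 in the NCD mice and between 2729 and 4349 in the HFD mice. In RNA of a whole fat pad, fewer cells of a type and less RNA per cell cannot be told apart.

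Among the nuclear receptors, NCD replicate 1 deviated in both directions. Of the 28 members with enough counts for a test, 5 were over 2-fold higher in this library than in the mean of the other NCD mice and 7 were over 2-fold lower, with a median log2 ratio of −0.25. *Nr4a3* (log2 ratio 3.84), *Nr6a1* (2.16), *Nr4a2* (1.48), *Nr2c1* (1.30) and *Nr2f2* (1.22) made up the high side. *Nr5a2* (−2.78), *Rxrg* (−2.25), *Rxra* (−1.54), *Nr1h4* (−1.42), *Nr3c1* (−1.29), *Thrb* (−1.06) and *Thra* (−1.04) made up the low side. Over all 14952 genes with this ratio, 16.1% were over 2-fold higher and 16.0% over 2-fold lower.

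**Figure D1:**
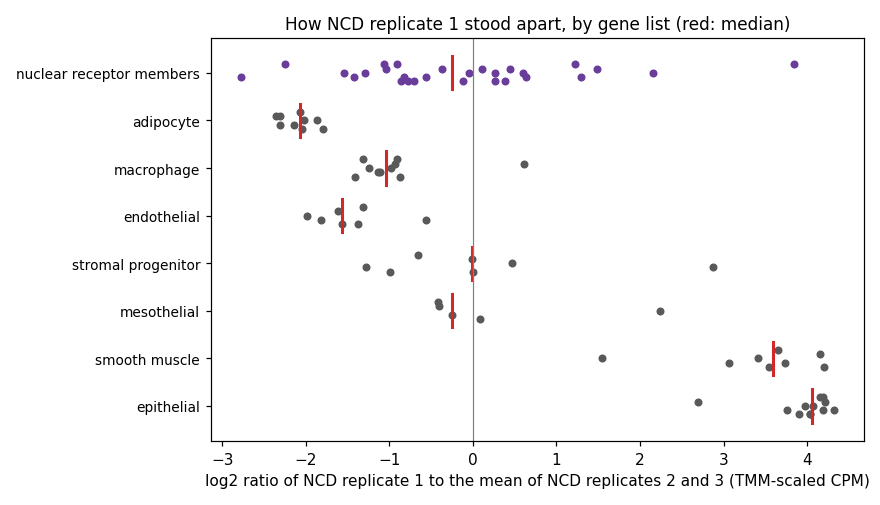
Log2 ratio of NCD replicate 1 to the mean of NCD replicates 2 and 3 on TMM-scaled CPM (horizontal axis) for the 28 tested nuclear receptors and for 7 lists of cell type markers (rows). Each point is 1 gene and red bars are medians. The adipocyte markers lie between −2.35 and −1.79, the epithelial markers between 2.69 and 4.32, and the receptors spread from −2.78 to 3.84.

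Receptor transcripts differed widely in level per transcript length. By mean FPKM over the 6 libraries, computed from exon lengths of GENCODE vM21, *Rxra* (34.1) was the highest, ahead of *Nr3c1* (26.9), which encodes the glucocorticoid receptor. *Esrra* (19.3), the estrogen-related receptor of mitochondrial gene programmes, *Thra* (15.6), *Rarg* (14.4), *Rxrb* (13.4), *Nr2f6* (11.6) and *Ppard* (9.25) followed. *Nr2f2* came next at 8.92, and with TMM-scaled FPKM it stood before *Ppard* (9.93 against 9.59). *Vdr* (0.830), *Nr1h4* (0.725), *Nr5a2* (0.469) and *Esrrg* (0.190) lay at the low end of the tested members. The 5 members left out of the test by the filter on low counts were *Nr1i3*, *Pgr*, *Esr2*, *Esrrb* and *Nr0b1*, all with a mean FPKM of 0.0125 or less.

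**Figure D2:**
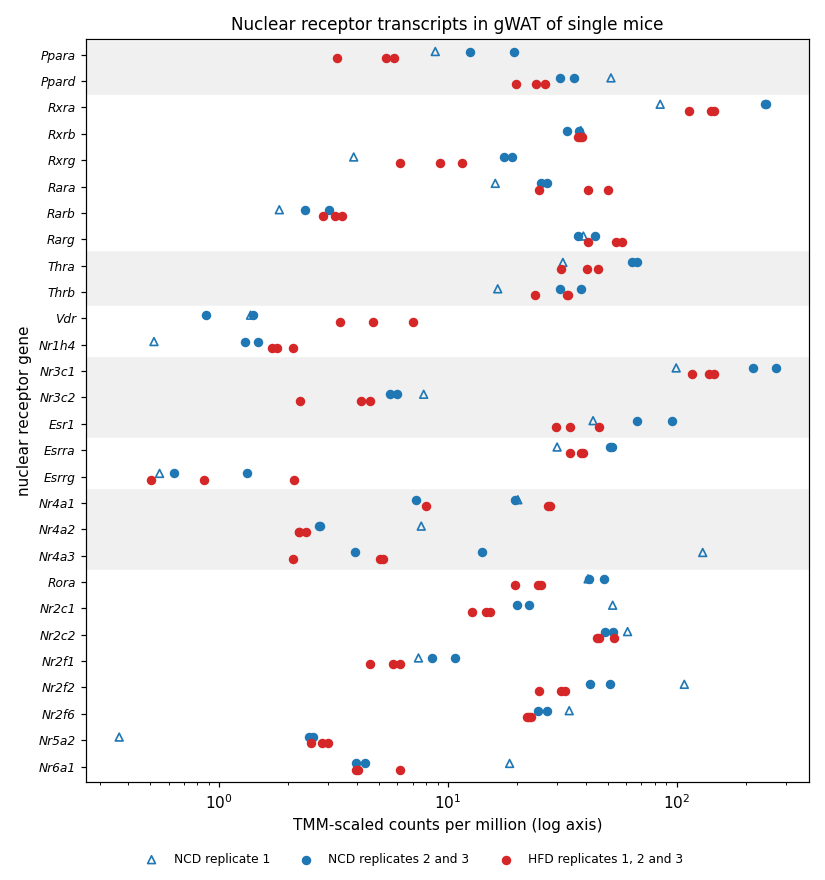
TMM-scaled CPM of the 28 tested nuclear receptors (log axis) in each mouse, with receptors grouped by family in shaded bands. Open triangles are NCD replicate 1, blue circles the other NCD mice and red circles the HFD mice. *Vdr* is the member with the HFD mice farthest above the NCD mice, between 3.38 and 7.03 against 0.875 to 1.40.

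With all 6 libraries, *Vdr* rose and *Rora* fell in HFD-fed mice. These 2 of the 28 tested members passed an adjusted p of 0.05 in edgeR's quasi-likelihood test, beside 7.47% of all 15241 genes tested (5.58% higher and 1.90% lower on HFD). The median log2 fold change was −0.50 for the members and −0.08 for all genes tested, and 18 of the 28 members had a negative value. The HFD and NCD mice did not overlap for 11 of the 28 members (9 lower and 2 higher on HFD), which is 39.3% beside 39.2% of all genes. Without NCD replicate 1, *Vdr* rose and 10 members fell, beside 20.9% of 15510 genes (10.7% higher and 10.1% lower). The 10 were *Ppara*, *Rxra*, *Rxrg*, *Thra*, *Rora*, *Nr2c1*, *Nr2f2*, *Nr3c1*, *Esr1* and *Esrra*. In this fit the median was −0.36 for the members and 0.02 for all genes, and 17 members did not overlap between diets, or 60.7% beside 57.1% of all genes. Leaving out any 1 of the other 5 libraries left 0 members past the threshold in the edgeR test, beside 2 to 7 of all 15433 to 15764 genes tested. In these fits 4 to 7 members had an unadjusted p under 0.05, beside 2988 to 4345 of all genes. DESeq2 called 8 members with all 6 libraries (28.6%, beside 25.7% of all genes with an adjusted p) and 13 without NCD replicate 1 (46.4%, beside 34.8%). The 8 were *Ppara*, *Ppard*, *Vdr*, *Rora*, *Nr2c1*, *Nr2f1*, *Nr2f2* and *Nr4a3*. The 13 were the 11 of the edgeR fit without NCD replicate 1, with *Ppard* and *Nr2f1*.

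**Figure D3:**
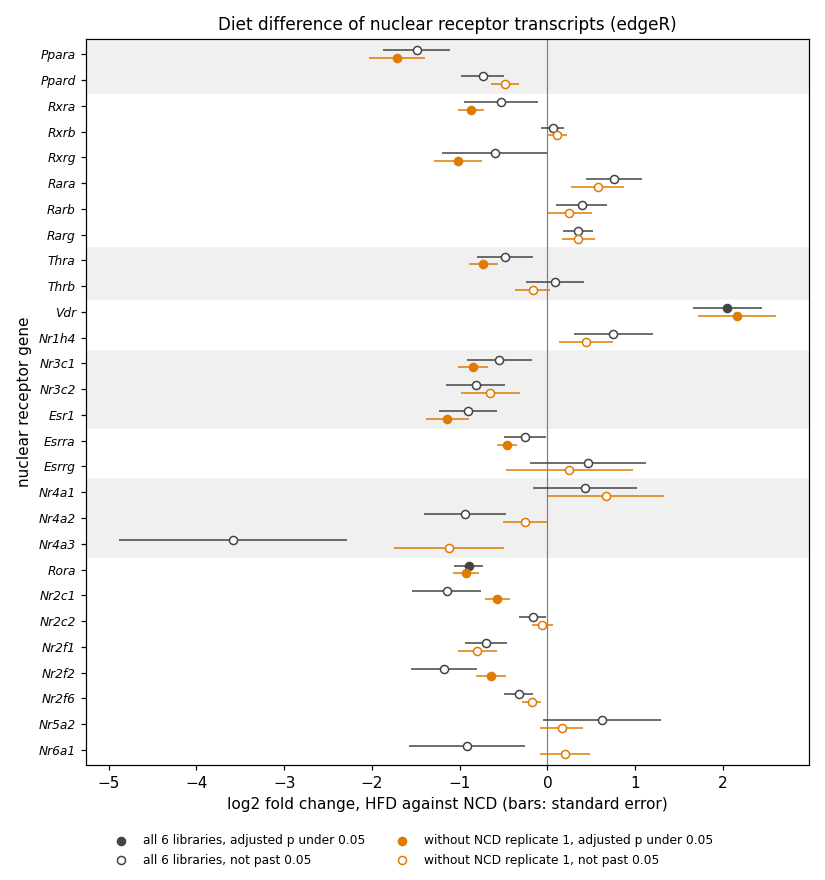
Log2 fold change of each tested nuclear receptor between HFD and NCD mice (edgeR), with bars for the standard error. Dark symbols are from all 6 libraries and orange symbols from the fit without NCD replicate 1, filled where the adjusted p is under 0.05. *Vdr* (2.05) and *Rora* (−0.90) are filled in both fits, and 9 further members, all negative, are filled without NCD replicate 1.

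*Vdr* encodes the vitamin D receptor, which binds calcitriol and works as a partner of RXR. Its level was 1.37, 1.40 and 0.875 TMM-scaled CPM in the NCD mice and 3.38, 4.70 and 7.03 in the HFD mice, each in order of replicate, as for all members. Every HFD mouse lay above every NCD mouse, and the library that stood apart was not the extreme NCD value. The means were 1.22 ± 0.297 (SD, n = 3) and 5.04 ± 1.85 (SD, n = 3). Its log2 fold change was 2.05 with a standard error of 0.39 (edgeR adjusted p = 0.0369) and 2.16 without NCD replicate 1 (adjusted p = 0.0254). The raw counts behind these values were between 45 and 84 in the NCD libraries and between 195 and 441 in the HFD libraries. Without any 1 of the other 5 libraries the adjusted p was between 0.0644 and 0.135, in fits that called 2 to 7 of all genes. All 10 macrophage markers also rose without NCD replicate 1 (10.7% of all genes did), and 5 of the 10 with all 6 libraries (5.58% of all genes). The highest *Vdr* level was in HFD replicate 3 and the highest summed macrophage level in HFD replicate 1, and the part of this cell type in the *Vdr* difference was not tested.

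*Rora* encodes the retinoic acid receptor-related orphan receptor alpha, which binds DNA as a monomer and activates genes of the circadian clock and of lipid metabolism. Its level was 41.0, 41.3 and 48.2 TMM-scaled CPM in NCD mice and 25.6, 24.7 and 19.7 in HFD mice. The diets did not overlap, and NCD replicate 1 was level with NCD replicate 2. The means were 43.5 ± 4.07 and 23.3 ± 3.16 (SD, n = 3 each). *Rora* fell by 0.90 on the log2 scale with a standard error of 0.16 (edgeR adjusted p = 0.0327), and by 0.93 without NCD replicate 1 (adjusted p = 0.0152). Without any 1 of the other 5 libraries the adjusted p was between 0.0769 and 0.128, again in fits that called 2 to 7 of all genes. With total counts in place of TMM the median of all genes shifted to 0.45, and the call of *Rora* was lost (log2 fold change −0.42, adjusted p = 0.533), its value still lying below that median.

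Promoters of some members are shown so that the start sites of a receptor that rose and of some that fell can be read. *Vdr* and *Rora* passed the edgeR test with and without NCD replicate 1, and *Ppara* and *Rxra* only without it. Each line gives 250 bases upstream of a RefSeq start site on assembly GRCm38.p6, 5′ to 3′ on the strand of the gene. Capitals mark the RXR-partner hexamer AGGTCA (or TGACCT on the other strand) and the GC box GGGCGG (or CCGCCC). *Vdr* lies at chr15:97854427-97908296 on the minus strand, *Rora* at chr9:68653404-69388246, *Ppara* at chr15:85734910-85806851 and *Rxra* at chr2:27676445-27763319, the last 3 on the plus strand.
Vdr, chr15:97908297-97908546, minus strand: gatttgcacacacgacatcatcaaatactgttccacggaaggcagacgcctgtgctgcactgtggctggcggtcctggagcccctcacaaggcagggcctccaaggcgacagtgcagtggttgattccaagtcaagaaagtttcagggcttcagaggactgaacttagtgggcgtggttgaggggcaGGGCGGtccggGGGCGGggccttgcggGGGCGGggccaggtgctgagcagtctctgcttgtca
Rora, chr9:68653536-68653785, plus strand: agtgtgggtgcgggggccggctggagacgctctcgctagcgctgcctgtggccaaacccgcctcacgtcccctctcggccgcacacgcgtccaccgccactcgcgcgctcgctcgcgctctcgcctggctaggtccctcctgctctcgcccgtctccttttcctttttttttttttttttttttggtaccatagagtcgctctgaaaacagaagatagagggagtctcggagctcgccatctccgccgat
Ppara, chr15:85735526-85735775, plus strand: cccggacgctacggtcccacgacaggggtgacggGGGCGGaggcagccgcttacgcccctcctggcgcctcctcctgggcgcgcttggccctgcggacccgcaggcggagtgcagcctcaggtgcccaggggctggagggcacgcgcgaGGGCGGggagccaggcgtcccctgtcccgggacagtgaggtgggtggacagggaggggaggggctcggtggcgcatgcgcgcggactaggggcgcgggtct
Rxra, first window, chr2:27676951-27677200, plus strand: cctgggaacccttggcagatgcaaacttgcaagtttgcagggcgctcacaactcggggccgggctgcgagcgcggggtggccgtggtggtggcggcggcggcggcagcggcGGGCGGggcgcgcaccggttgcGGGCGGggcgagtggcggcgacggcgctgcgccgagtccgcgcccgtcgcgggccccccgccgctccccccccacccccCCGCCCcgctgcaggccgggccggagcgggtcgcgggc
Rxra, second window, chr2:27709042-27709291, plus strand: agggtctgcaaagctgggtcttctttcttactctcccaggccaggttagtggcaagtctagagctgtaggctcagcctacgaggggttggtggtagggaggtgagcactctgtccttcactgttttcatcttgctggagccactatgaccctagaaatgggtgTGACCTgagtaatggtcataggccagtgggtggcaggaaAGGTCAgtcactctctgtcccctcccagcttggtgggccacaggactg
The *Vdr* window held 3 GC boxes, at −63, −52 and −36 from the start site, and the *Ppara* window held 2, at −216 and −101. The *Rora* window held neither motif. The first window of *Rxra*, near the start of the gene, held 3 GC boxes, at −139, −117 and −38, and no AGGTCA, and the *Vdr* window likewise held no AGGTCA. The second window of *Rxra*, from a start site inside the gene, held 2 copies of AGGTCA, at −87 on the opposite strand and at −48 on the gene's strand, and no GC box. A match is a stretch of letters and not a measured binding site. Promoter sequences were at hand for 31 of the 33 members, all but *Thra* and *Nr3c1*. On both strands, AGGTCA was present in 17.0% of the 47 member windows (8 genes) and in 14.0% of all 32851 windows of the same length. GGGCGG was present in 46.8% of the member windows (18 genes) and in 32.7% of all windows. The palindromic glucocorticoid response element was present in none of the 47 member windows and in 0.387% of all windows. The median GC content was 59.6% in the member windows and 52.4% in all windows.

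The fatty acid receptors PPARα and PPARδ switch on genes of fatty acid oxidation, and both had lower levels in every HFD mouse than in any NCD mouse. *Ppara* was at 8.80, 12.5 and 19.4 TMM-scaled CPM in NCD mice and 5.36, 5.83 and 3.28 in HFD mice. NCD replicate 1 was the lowest NCD value. The log2 fold change of *Ppara* was −1.49 (standard error 0.38, edgeR adjusted p = 0.0658), and without NCD replicate 1 *Ppara* fell by 1.71 (adjusted p = 0.0196), which left 0.306 of the NCD level. *Ppard* was at 51.6, 35.5 and 30.9 in NCD mice and 19.8, 24.2 and 26.6 in HFD mice. Here NCD replicate 1 was the highest value. For *Ppard* the change was −0.74 on the log2 scale (standard error 0.24, edgeR adjusted p = 0.105). Without NCD replicate 1 it was −0.48 (adjusted p = 0.0914), so *Ppard* did not pass the edgeR test in either fit. DESeq2 called *Ppard* with and without NCD replicate 1 (adjusted p = 0.0372 in each).

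RXRs are the obligate partners of many other receptors, and *Rxrb* did not share the pattern of the other RXR genes. *Rxra* was at 84.7, 244 and 247 TMM-scaled CPM in NCD mice and 142, 145 and 113 in HFD mice. The HFD mice lay below NCD replicates 2 and 3 and above NCD replicate 1. The log2 fold change was −0.53 (standard error 0.42, edgeR adjusted p = 0.425), and without NCD replicate 1 *Rxra* fell by 0.87 (standard error 0.15, adjusted p = 0.0159). *Rxrg*, the member restricted to fewer tissues, was at 3.87, 17.6 and 19.1 in NCD mice and 11.5, 9.22 and 6.15 in HFD mice, and its HFD mice too lay between NCD replicate 1 and the other NCD mice. It fell by 1.02 without NCD replicate 1 (adjusted p = 0.0475), and its value with all libraries was −0.60 (adjusted p = 0.532). *Rxrb* was at 38.1, 33.2 and 37.4 in NCD mice and 37.0, 37.7 and 38.5 in HFD mice. Its log2 fold change was 0.06, with an edgeR adjusted p of 0.780 and a standard error of 0.13.

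Retinoic acid receptors did not pass the test in either fit. *Rara* was at 16.1, 27.2 and 25.4 TMM-scaled CPM in NCD mice and 24.9, 41.0 and 50 in HFD mice, a log2 fold change of 0.76 (standard error 0.32, edgeR adjusted p = 0.179). *Rarg*, the most abundant of the 3 per length, was at 39.1, 37.2 and 43.8 in NCD mice and 41.0, 54.2 and 57.6 in HFD mice, a log2 fold change of 0.35 (adjusted p = 0.237). *Rarb* stayed between 1.83 and 3.44 in all mice (adjusted p = 0.403). For each of the 3 genes HFD replicate 1 lay within the range of the NCD mice. Of the exon bases of *Rarb*, 52.9% are shared with *Top2b* on the opposite strand.

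The thyroid hormone receptor genes carry the nuclear effect of triiodothyronine. *Thra* was at 31.8, 67.0 and 64.0 TMM-scaled CPM in NCD mice and 45.4, 40.4 and 31.3 in HFD mice. NCD replicate 1 lay among the HFD mice. Its log2 fold change was −0.48 (standard error 0.32, edgeR adjusted p = 0.352), and without NCD replicate 1 *Thra* fell by 0.73 (adjusted p = 0.0337). *Thrb* was at 16.5, 30.9 and 38.0 in NCD mice and 24.0, 33.3 and 33.5 in HFD mice, with values of 0.09 and −0.17 in the 2 fits (adjusted p = 0.874 and 0.568). Of the exon bases of *Thra*, 8.33% are shared with *Nr1d1* on the opposite strand, and no source used here states whether the counting used strand.

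*Nr3c1*, the glucocorticoid receptor gene, was at 99.5, 216 and 271 TMM-scaled CPM in NCD mice and 139, 146 and 117 in HFD mice. As for *Rxra*, the HFD mice lay between NCD replicate 1 and the other NCD mice. The log2 fold change was −0.55 (standard error 0.37, edgeR adjusted p = 0.362), and without NCD replicate 1 *Nr3c1* fell by 0.85 (standard error 0.17, adjusted p = 0.0227). *Nr3c2*, the mineralocorticoid receptor gene, was at 7.83, 5.57 and 5.99 in NCD mice and 4.54, 4.18 and 2.25 in HFD mice. All HFD values were below all NCD values, but the log2 fold change of −0.82 did not pass the test (adjusted p = 0.171, and 0.219 without NCD replicate 1).

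Of the sex steroid receptors examined, *Esr1*, which encodes estrogen receptor alpha, was readily detected. It was at 43.1, 67.1 and 95.5 TMM-scaled CPM in NCD mice and 34.0, 45.9 and 29.7 in HFD mice. HFD replicate 2 lay above NCD replicate 1 and below the other NCD mice. Its log2 fold change was −0.91 (standard error 0.33, edgeR adjusted p = 0.130), and without NCD replicate 1 *Esr1* fell by 1.14 (standard error 0.24, adjusted p = 0.0269). *Pgr*, the progesterone receptor gene, had 32 raw counts in the library of NCD replicate 1, only 2 in that of NCD replicate 2 and 0 in the other 4. *Esr2*, which encodes estrogen receptor beta, had 6 and 2 counts in the same 2 libraries and 0 in the others. A count of 0 allows up to 3 counts, which is between 0.0452 and 0.0605 CPM in these libraries.

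Estrogen-related receptors resemble estrogen receptors in sequence but bind no estrogen, and ERRα is known for driving mitochondrial genes with PGC-1 coactivators. *Esrra* was at 30.0, 52.3 and 50.9 TMM-scaled CPM in NCD mice and 38.2, 34.0 and 39.0 in HFD mice. NCD replicate 1 was the lowest of all 6 mice. The log2 fold change was −0.26 (standard error 0.24, edgeR adjusted p = 0.493), and without NCD replicate 1 *Esrra* fell by 0.46 (standard error 0.11, adjusted p = 0.0387). With total counts and all 6 libraries the value was 0.15, where the median of all genes was 0.45. *Esrrg* was between 0.503 and 2.12 in all mice, with a standard error of 0.66 around a log2 fold change of 0.46. *Esrrb* had between 0 and 9 counts per library.

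NCD replicate 1 held the lowest NCD level of *Ppara*, *Rxra*, *Rxrg*, *Thra*, *Nr3c1*, *Esr1* and *Esrra* and of all 9 adipocyte markers. It also held the lowest NCD level of *Rora*, *Nr2f1*, *Thrb*, *Rara*, *Rarb*, *Nr1h4*, *Nr5a2* and *Esrrg*. The log2 fold changes of *Rara*, *Rarb*, *Nr1h4*, *Nr5a2* and *Esrrg* were positive with and without NCD replicate 1. Without NCD replicate 1, 5 of the 9 adipocyte markers fell in HFD mice (*Plin1*, *Cfd*, *Lipe*, *Slc2a4* and *Retn*), beside 10.1% of all genes. The median log2 fold change was −0.95 over the 9 and 0.02 over all genes. The part of adipocyte content in the receptor differences was not tested. *Nr2c1* and *Nr2f2*, which also fell in that fit, were instead highest in NCD replicate 1.

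NR4A receptors are orphan receptors that are induced within hours by cAMP and other stimuli and act without a ligand. *Nr4a1* was at 20.2, 7.23 and 19.6 TMM-scaled CPM in NCD mice and 8.04, 27.4 and 27.8 in HFD mice, and the low mice of both diets were alike (adjusted p = 0.652). *Nr4a3* was at 130, 14.1 and 3.93 in NCD mice and 2.10, 5.19 and 5.02 in HFD mice. Nearly all of this spread lay within the NCD group. For *Nr4a3* the log2 fold change was −3.58 (standard error 1.30, edgeR adjusted p = 0.134), −1.12 without NCD replicate 1 (adjusted p = 0.249) and 0.07 without NCD replicates 1 and 2. *Nr4a2* was at 7.64, 2.76 and 2.74 in NCD mice and between 2.22 and 2.39 in HFD mice (log2 fold change −0.94, adjusted p = 0.239). None of the 3 passed the edgeR test with all 6 libraries or without NCD replicate 1. DESeq2 called *Nr4a3* with all 6 libraries (adjusted p = 0.00638) and not without NCD replicate 1 (adjusted p = 0.181).

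The testicular receptors TR2 and TR4 (*Nr2c1* and *Nr2c2*) bind the same hexamer repeats as RXR heterodimers. *Nr2c1* was at 52.5, 22.7 and 20 TMM-scaled CPM in NCD mice and 15.3, 14.7 and 12.8 in HFD mice. All HFD mice lay below all NCD mice, and NCD replicate 1 was far above the others. The NCD levels were in the order of the seminal vesicle share of the NCD libraries, and the part of this admixture was not tested. The log2 fold change of *Nr2c1* was −1.15 (standard error 0.39, edgeR adjusted p = 0.118). Without NCD replicate 1 *Nr2c1* fell by 0.57 (standard error 0.14, adjusted p = 0.0408), and without NCD replicates 1 and 2 by 0.48. *Nr2c2* was between 48.5 and 61.0 in NCD mice and between 45.0 and 53.2 in HFD mice (log2 fold change −0.17, adjusted p = 0.476, and 0.37 with total counts). Of the exon bases of *Nr2c2*, 43.5% are shared with *Mrps25* on the opposite strand.

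COUP transcription factors are orphan receptors that mostly repress, and COUP-TFII is known as a brake on adipocyte differentiation and as a vein identity factor. *Nr2f2*, which encodes COUP-TFII, was at 108, 41.6 and 51.3 TMM-scaled CPM in NCD mice and 25.1, 32.6 and 31.1 in HFD mice. The diets did not overlap with or without NCD replicate 1. The log2 fold change was −1.18 (standard error 0.38, edgeR adjusted p = 0.105), and without NCD replicate 1 *Nr2f2* fell by 0.64 (standard error 0.17, adjusted p = 0.0481). *Nr2f1* was at 7.43, 8.53 and 10.7 in NCD mice and 4.54, 6.16 and 5.75 in HFD mice (log2 fold change −0.70, adjusted p = 0.123, and −0.80 and 0.0544 without NCD replicate 1). *Nr2f6* was at 33.9, 27.0 and 24.7 in NCD mice and 22.2, 23.0 and 22.7 in HFD mice (log2 fold change −0.33, adjusted p = 0.227, and 0.23 with total counts). The exons of *Nr2f6* share 41.2% of their bases with *Ocel1* on the opposite strand.

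The remaining members did not pass the test or had too few counts for it. *Nr1h4*, the bile acid receptor FXR, was at 0.518, 1.47 and 1.30 TMM-scaled CPM in NCD mice and 1.70, 2.10 and 1.79 in HFD mice (log2 fold change 0.75, edgeR adjusted p = 0.307). It was, with *Vdr*, the other member whose HFD mice all lay above the NCD mice. *Nr5a2*, which encodes LRH-1, was at 0.365 in NCD replicate 1, while the other 5 mice had 2.46 to 3.0. *Nr6a1*, a germ cell repressor, was at 18.6 in NCD replicate 1, while the other 5 mice had 3.95 to 6.19. For these 2 genes the spread was that of 1 library. *Nr1i3*, the xenobiotic receptor CAR, had 2 counts in HFD replicate 2 and 0 elsewhere. *Nr0b1*, which encodes the repressor DAX1, was read 2 times in NCD replicate 1, 3 times in HFD replicate 1 and in no other library.

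Paralogues that can replace each other on DNA were also compared by their share within a library, which does not depend on the scaling between libraries. The share is the percent of the summed FPKM of the group. An exact two-sided permutation test of 3 against 3 mice cannot give a p below 0.1, and 9 groups were tested. *Nr2c1* took 60.3, 45.2 and 40.2% of the TR2 and TR4 transcripts in NCD mice and 33.7, 36.2 and 33.4% in HFD mice. It was the share in which the diets did not overlap (exact permutation p = 0.1, adjusted 0.45 over the 9). The difference was −14.1 percentage points, or −8.30 without NCD replicate 1. The NCD shares of *Nr2c1*, like its NCD levels, were in the order of the seminal vesicle share of the NCD libraries. *Rxra* took 52.7, 71.4 and 69.5% of the RXR transcripts in NCD mice and 60.9, 62.4 and 58.1% in HFD mice. *Thra* took between 78.2 and 82.2% of the thyroid hormone receptor transcripts in NCD mice and 80.1, 72.2 and 66.6% in HFD mice. *Ppara* took 13.6, 24.6 and 36.7% of the PPARα and PPARδ transcripts in NCD mice and 20, 18.2 and 10.3% in HFD mice. In 3 groups 1 gene took at least 81.6% in every mouse. These were glucocorticoid and mineralocorticoid receptors (*Nr3c1* between 92.3 and 98.0%), COUP-TFs (*Nr2f2* between 81.6 and 93.1%) and estrogen-related receptors (*Esrra* between 97.8 and 99.5%). The largest gene was also the same in every mouse for thyroid hormone receptors (*Thra*), RXRs (*Rxra*), retinoic acid receptors (*Rarg*) and PPARα and PPARδ (*Ppard*). In the NR4A group *Nr4a1* took 23.4, 45.7 and 83.8% in NCD mice and between 75.8 and 87.6% in HFD mice (exact permutation p = 0.2).

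**Figure D4:**
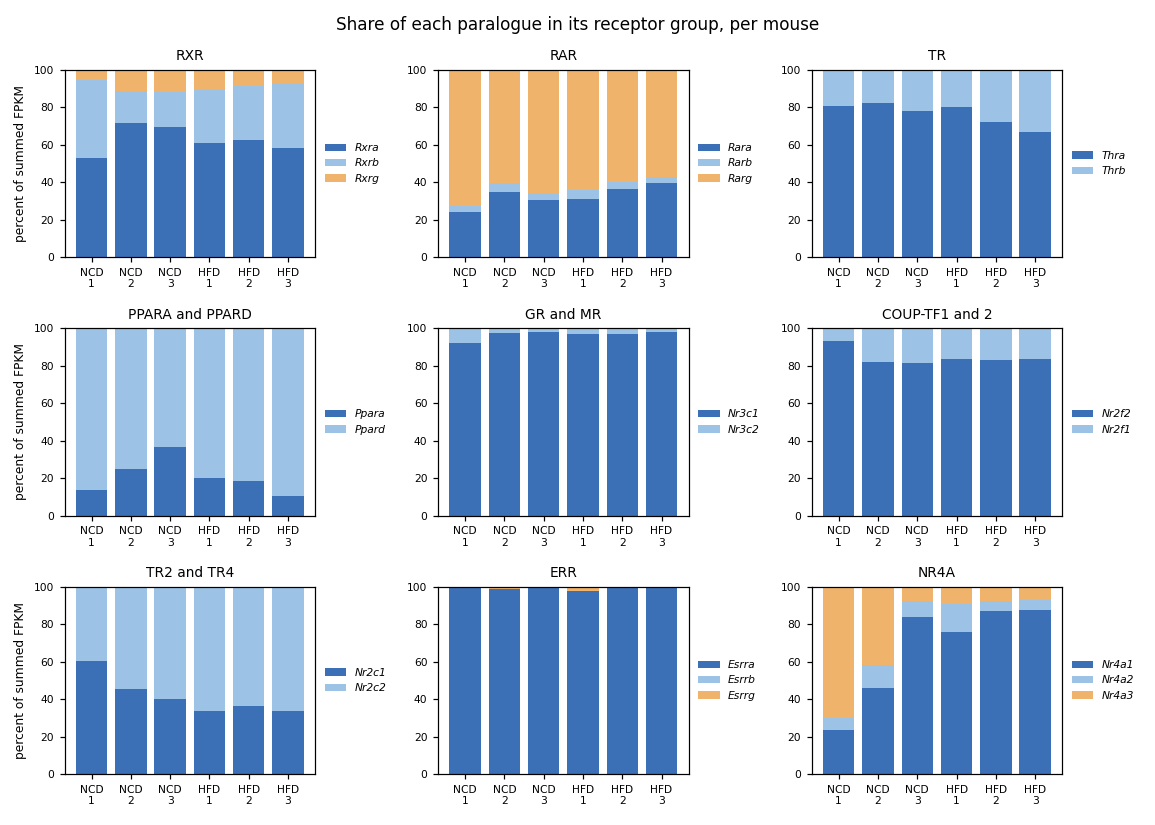
Percent of the summed FPKM that each paralogue took in 9 receptor groups, as stacked bars from 0 to 100 for each of the 6 mice. *Nr2c1* in the TR2 and TR4 group is at 40.2% or more in NCD mice and at 36.2% or less in HFD mice, and the NR4A group differs most among the NCD mice.

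Coregulators link the receptors to chromatin and to the transcription machinery. Of 36 coregulator genes tested, 2 passed the edgeR test with all 6 libraries, a share below the 7.47% of all genes. *Ncoa3*, a p160 coactivator, rose from 56.1, 60.2 and 58.7 TMM-scaled CPM in NCD mice to 90.8, 96.2 and 104 in HFD mice (log2 fold change 0.73, adjusted p = 0.0307). *Nrip1*, which encodes the corepressor RIP140, a repressor of oxidative genes in fat, fell from 59.7, 61.0 and 40.2 to 14.9, 21.8 and 14.6 (log2 fold change −1.65, adjusted p = 0.0246). Both kept their call without NCD replicate 1 (adjusted p = 0.0147 and 0.0151). In that fit 7 of the 36 were called, beside 20.9% of all genes. *Ncoa7* rose (log2 fold change 0.68), while *Ncoa1* (−0.54), *Ppargc1a*, which encodes the PGC-1α coactivator (−2.0), *Kat2b* (−0.65) and *Tbl1x* (−0.69) fell. The corepressor gene *Ncor1* did not pass the test with all 6 libraries (log2 fold change −0.09, adjusted p = 0.737) or without NCD replicate 1 (−0.01, adjusted p = 0.979). The median of the list was −0.15 with all 6 libraries, beside −0.08 for all genes. Without NCD replicate 1 it was −0.05, beside 0.02. Of all genes on the coregulator, ligand and target lists, 17 passed with all 6 libraries and 43 without NCD replicate 1. Without any 1 of the other 5 libraries, 0 passed. The same fits called 1139, 3234 and 2 to 7 of all genes.

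Of 40 tested genes for ligand synthesis, ligand transport and receptor chaperoning, 4 passed the test with all 6 libraries, beside 7.47% of all genes. *Aldh1a2*, which makes retinoic acid, rose from 8.04, 11.9 and 9.99 TMM-scaled CPM to 29.1, 50.8 and 53.0 (log2 fold change 2.15, edgeR adjusted p = 0.0219). *Stra6l*, a retinol transporter gene, was between 0 and 0.117 in NCD mice and at 10, 3.46 and 2.89 in HFD mice (adjusted p = 0.0300). *Srd5a3* rose by 0.67 (adjusted p = 0.0423), and *Fkbp5*, a cochaperone of the glucocorticoid receptor, fell by 1.09 (adjusted p = 0.0453). Without NCD replicate 1, 9 of 42 tested genes of this list passed, beside 20.9% of all genes. The 4 genes above kept their call, *Hsp90aa1* rose by 0.52, and 4 more genes fell. These were *Rbp4* (log2 fold change −1.96), the plasma carrier of retinol, *Hsd17b12* (−1.08), *Sult1e1* (−2.82), which inactivates estrogen, and *Fkbp4* (−0.74). Of the 5 tested thyroid hormone genes, *Dio2*, which activates the hormone, was at 0.853, 2.06 and 1.30 in NCD mice and 0.693, 0.288 and 0.367 in HFD mice (log2 fold change −1.65, adjusted p = 0.105, and 0.0545 without NCD replicate 1). Of the vitamin D genes, *Cyp27b1*, which makes calcitriol, was at most 0.396 in any mouse. *Hsd11b1*, which regenerates active glucocorticoid, was at 57.6, 236 and 274 in NCD mice and 191, 96.8 and 100 in HFD mice and did not pass the test (adjusted p = 0.566, and 0.0868 without NCD replicate 1).

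The textbook target lists moved in both directions, with 8 rises and 4 falls among 55 tested genes. Beside them, 5.58% of all genes were higher and 1.90% lower. These 55 include 9 immediate early genes, listed for responding to the same stimuli as the NR4A genes and not as targets. They hold 2 of the 8 rises (*Fos* and *Egr2*). Of the 15 targets of PPARα and PPARδ, 5 rose with all 6 libraries, while both receptor transcripts were lower in each HFD mouse than in each NCD mouse. The part of these receptors, of other factors or of macrophage content in the target differences was not tested. *Pdk4*, which restrains glucose oxidation, went from 14.0, 33.7 and 22.4 TMM-scaled CPM to 273, 129 and 183 (log2 fold change 3.06, edgeR adjusted p = 0.0228). *Angptl4*, an inhibitor of lipoprotein lipase, went from 53.8, 156 and 211 to 789, 757 and 907 (2.54, adjusted p = 0.0425), and *Vnn1* from 1.64, 2.74 and 6.70 to 24.0, 43.1 and 38.0 (3.24, adjusted p = 0.0320). *Cyp4a10* had no count in the NCD mice and 0.520, 0.719 and 1.24 TMM-scaled CPM in the HFD mice, and *Cyp4a14* was similarly low (at most 0.574). Without NCD replicate 1, 8 of the 15 rose (10.7% of all genes did), *Cpt1a* and *Plin2* among them, and *Cpt2* fell. With all 6 libraries the median log2 fold change of the 15 was 1.19, beside −0.08 for all genes. Without NCD replicate 1 it was 0.81, beside 0.02.

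Target lists of the other receptors split. Beside them, 5.58% of all genes rose and 1.90% fell with all 6 libraries. Without NCD replicate 1 these shares were 10.7% and 10.1%. Of 11 tested glucocorticoid receptor targets, *Mt2* rose (adjusted p = 0.0498 in edgeR, and 0.0511 without NCD replicate 1) and *Fkbp5* (log2 fold change −1.09) and *Per1* (−0.85) fell. Without NCD replicate 1 *Zbtb16*, *Sgk1* and *Errfi1* fell as well and *Dusp1* rose. Of 4 tested thyroid hormone receptor targets, *Thrsp* went from 605, 2091 and 3013 TMM-scaled CPM to 155, 111 and 34.4 (log2 fold change −4.25, adjusted p = 0.0417), and *Me1* from 465, 2507 and 2988 to 242, 190 and 138 (−3.39, adjusted p = 0.0496). Both are lipogenic genes that other factors control as well. Of the retinoic acid receptor targets, *Tgm2* and *Rarres2* rose without NCD replicate 1 (adjusted p = 0.0241 and 0.00769, and 0.0508 and 0.0791 with all 6 libraries). Of 6 ERR targets, *Idh3a*, *Cycs*, *Atp5b* and *Ndufa4*, all mitochondrial, fell without NCD replicate 1 (adjusted p between 0.0144 and 0.0395, and between 0.105 and 0.393 with all 6 libraries). Of 9 immediate early genes that respond to the same stimuli as the NR4A genes, *Fos* (10.2, 19.1 and 33.7 in NCD mice, 100, 119 and 131 in HFD mice) and *Egr2* rose, and without NCD replicate 1 *Junb* and *Atf3* rose too. *Trpv6*, a vitamin D receptor target of epithelia, was at 179, 17.0 and 2.74 in NCD mice and had no count in HFD mice, in the order of the seminal vesicle share of the NCD libraries. It was called without NCD replicate 1 only (adjusted p = 0.0217).

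**Figure D5:**
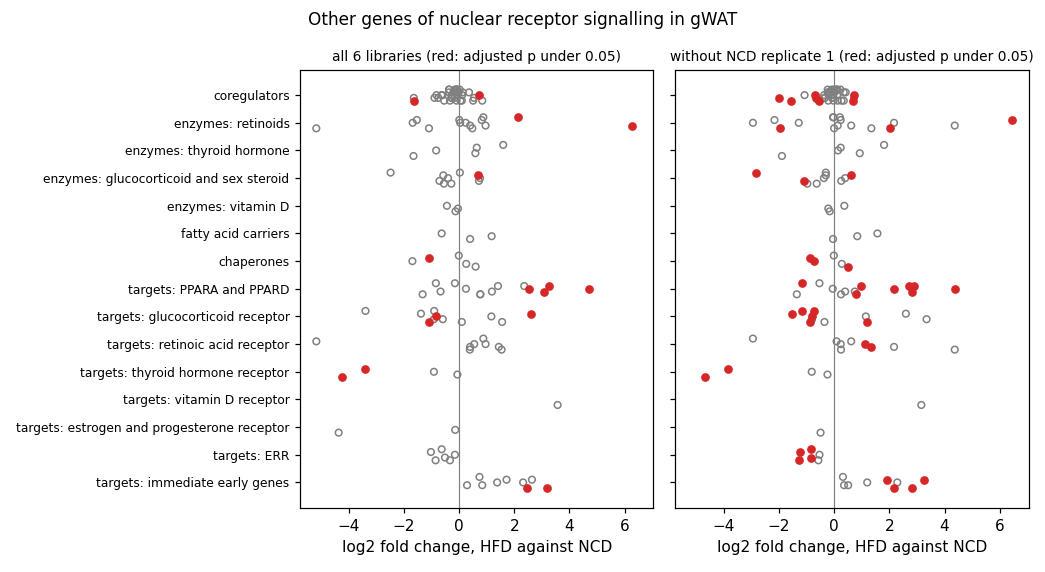
Log2 fold change between HFD and NCD mice for coregulators, ligand enzymes and carriers, target genes and immediate early genes (rows). All 6 libraries are on the left and the fit without NCD replicate 1 is on the right. Each circle is 1 tested gene, filled red where the edgeR adjusted p is under 0.05. *Cyp4a10* and *Trpv6*, with no count on 1 diet, are left out, and the red circles of the PPAR row lie to the right of 0 in the left panel.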

How the data were processed

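RNA of gWAT from 6 mice was sequenced, and the authors deposited raw read counts per gene, 1 column per mouse, without normalization. Per the labels, the kit was a stranded mRNA kit, and the submitters' processing notes name bcl2fastq 2.20.0, Trimmomatic, HISAT2 2.1.0, StringTie 1.3.4d, DESeq2 and the builds mm10 and GRCm38, with no role given for each. Of 19790 NCBI identifiers, 19742 were paired with a symbol (RefSeq, GRCm38.p6), and the other 48 held 0.629% of the counts. Libraries held 49575113 to 66360046 counts, so the spread between mice limits the precision of abundant genes, and counting error that of genes with few counts. Floors cover counting error only.

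HFD was compared with NCD by the quasi-likelihood test of edgeR 4.0.16 (glmQLFit, glmQLFTest, R 4.3.3) after filterByExpr (at least 10 counts, total of at least 15) and TMM scaling. Adjusted p-values (Benjamini-Hochberg) cover the 15241 tested genes, with a threshold of 0.05. The common biological coefficient of variation was 0.424. Standard errors were derived from the log2 fold change and the F statistic. FPKM used exon-union lengths of GENCODE vM21 basic (17793 genes). Paralogue shares were compared by exact permutation. The procedure was also run on simulated counts without admixed RNA of another tissue. That run does not show how the test behaves with a library like NCD replicate 1. The members and lists were chosen with earlier results of these data known. Values per mouse were given for members past the threshold with all libraries or without NCD replicate 1, for the 8 highest by FPKM, and by range for most others. List genes past the threshold in either fit were named, at most 8 a list. Lists of cell type markers were summed per library.

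Alternatives were median-of-ratios scaling, total counts, no filter, DESeq2 1.42.0, limma 3.58.1 voom with quality weights, the replicate number as a block, and each mouse left out. DESeq2 without NCD replicate 1, and edgeR without NCD replicates 1 and 2, were chosen after seeing the data. Replicates differed far beyond sampling noise (chi-square per degree 116 to 3600). Plots were made in Python 3.11.15 (matplotlib 3.10.9). A few genes are not reported here.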

Additional observations from a re-analysis of the deposited data

How the results depend on the processing

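The count of nuclear receptors past the adjusted p (2 with all 6 libraries, beside 1139 of all genes and 17 genes of the coregulator, ligand and target lists) changed with the processing. It was 1 with total counts, and 8 with DESeq2 (3904 genes, 49 list genes), 14 with voom quality weights (5570 and 64), 13 with DESeq2 without NCD replicate 1 (5393 and 57) and 0 without NCD replicates 1 and 2 (529 and 7), where the lone NCD mouse was assumed to vary like the HFD mice and 11 members had an unadjusted p under 0.05. Without the filter 9 list genes passed. Leaving out 1 mouse gave 0 to 11 members, 2 to 3234 genes and 0 to 43 list genes, the highest values without NCD replicate 1; the other 5 omissions gave 2 to 7 genes and 0 list genes. The median-of-ratios scaling kept both members. The cause of these changes was not tested.

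With the replicate number as a block, 0 members, 12 genes and 0 list genes passed in edgeR, with 6 members and 3571 genes at an unadjusted p under 0.05. The numbers did not pair the samples (correlations of deviations −0.0565, −0.0457 and 0.00965, and 0 of 6 libraries closest to their own number).

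Of the 28 members, 20 kept their sign in all 14 alternatives. Reversed log2 fold changes were those of *Rxrb* without NCD replicate 2 (−0.00464, omissions up to 0.11), *Thrb* with voom weights (−0.00399), without NCD replicate 1 (−0.17, omissions up to 0.37, DESeq2 −0.18) and without NCD replicates 1 and 2 (−0.32), *Nr2c2*, *Nr2f6* and *Esrra* with total counts (0.37, 0.23 and 0.15, where the median of all genes was 0.45), *Esrrg* with voom weights (−0.72) and without HFD replicate 1 (−0.29, omissions up to 0.96), *Nr4a3* without NCD replicates 1 and 2 (0.07), and *Nr6a1* with voom weights (0.30), without NCD replicate 1 (0.20, omissions from −1.25, DESeq2 0.19) and without NCD replicates 1 and 2 (0.26).

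Of the 9 shares, that of *Nr3c1* reversed without NCD replicate 1 (−0.291 percentage points, from 1.45; range over omissions −0.291 to 2.41), as did that of *Nr2f2* (1.61, from −2.17; range −4.13 to 1.61), and that of *Esrra* without HFD replicate 1 (0.0159, from −0.458; range −0.767 to 0.0159). The others kept their sign. With 3 mice a diet, the spread between mice limits calls of small changes, and members with few counts, such as *Nr1h4* in the NCD mice (17 to 88), carry counting error besides.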

Other observations

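Of the other 16 mouse nuclear receptors, 14 were in the table. *Pparg*, the regulator of adipocyte differentiation, was at 53.6, 253 and 295 TMM-scaled CPM in NCD mice and 136, 137 and 105 in HFD mice, the same order of mice as *Rxra*, its partner. It fell by 1.11 on the log2 scale without NCD replicate 1 (edgeR adjusted p = 0.0123), and its log2 fold change with all libraries was −0.67 (adjusted p = 0.473). In the fit without NCD replicate 1, *Nr1d2* fell by 0.64 (adjusted p = 0.0387). *Rorb* (476, 76 and 13 raw counts) and *Nr2e3* (525, 79 and 10) were counted in NCD mice and had 0 counts in every HFD mouse, in the order of the seminal vesicle share of the NCD libraries. The LXR genes *Nr1h2* and *Nr1h3* did not pass the test in either fit (adjusted p between 0.195 and 0.920).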
